A study of Solanum lycopersicum and Arabidopsis thaliana and Cannabis sativa with 28 samples.

Results

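Narrow H3K4me3 domains of hemp (Cannabis sativa) seedlings are described here. They were chosen as the listed domains of the hemp H3K4me3 table with an end minus start under 800 bp, at least 4 times as many H3K4me3 reads as IgG reads (a domain with 0 IgG reads was kept), and a midpoint in a 1 Mb bin that held the midpoints of 10 or more listed domains. This gave 1783 of the 16331 listed hemp domains, or 10.9%. The domains come from PHILO ChIP-seq, a chromatin immunoprecipitation protocol for many samples and small amounts of tissue, of untreated whole seedlings of the hemp variety Otto II Boax at 2 weeks of age. Chromatin was precipitated with an antibody against H3K4me3 in 3 libraries and with IgG, an antibody without a histone target, in 3 control libraries. The authors merged the 3 libraries of each antibody before domains were called, so each domain has 1 read count per antibody and no replicate error. No mutant or transgene was involved. The seedlings hold many cell types, and a domain carried by few cells and a domain with little mark in every cell cannot be told apart.

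H3K4me3 is the trimethylated form of lysine 4 of histone H3. In plants, COMPASS-like methyltransferase complexes place it, and it is found mostly at the start and along the first part of transcribed genes, where PHD-finger and other reader proteins bind it. A domain as used here is a stretch of windows that the peak caller epic2 joined and listed as enriched in H3K4me3 over the IgG control. The enrichment is that of the whole stretch, and single windows were not examined. The hemp table names no genes, and no annotation of its genome build was used, so the domains are given by position (build cs10, as deposited).

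Width, both read counts and the number of domains in the bin chose the narrow domains, so the values of these measures are a description and no test was made on them. A read ratio of at least 4 was reached by 91.6% of all listed hemp domains and by 90% of the narrow domains of dense bins, that is by 1783 of 1982. The ratio was part of the rule, and nothing is read from either share. The narrow domains made up 80.2% of the 2223 listed hemp domains under 800 bp. Of the others, 199 had a ratio under 4 in dense bins, and the rest lay in bins with fewer than 10 domains. A ratio of 4 corresponds to an authors' log2 fold change of 1.01, so that their cut-off of 1 selected the same 14960 domains in the whole table.

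The narrow domains were short and held few reads. They covered 1089.8 kb, 2.79% of the length of all listed hemp domains, and held 2.56% of the H3K4me3 reads and 1.92% of the IgG reads in listed domains. H3K4me3 reads per narrow domain ran between 21 and 586 with a median of 72 (interquartile range 43 to 130). IgG reads per narrow domain ran between 0 and 34 with a median of 6 (interquartile range 3 to 10). The wider domains of the same dense bins with a ratio of at least 4, 11769 in number, had a median width of 2399 bp, 475 H3K4me3 reads and 39 IgG reads, against 599 bp, 72 and 6 for the narrow domains. Counts of this size limit the precision of a single narrow domain: 128 of them (7.18%) had at most 30 H3K4me3 reads, while 618 (34.7%) had 100 or more.

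Relative to their length, the narrow domains held less of both antibodies' reads than the wider ones. The median was 128 H3K4me3 reads per kb in narrow domains (interquartile range 85.0 to 205) and 189 in wider domains (127 to 267). The median of IgG reads was 10.0 per kb in narrow domains and 16.9 per kb in wider domains. The median read ratio was 15.0 in narrow domains (7.67 to 27.4) and 11.8 in wider domains (8.22 to 17.1), so the higher ratio stood beside fewer IgG reads per kb and not beside more H3K4me3 reads per kb. The part of the low IgG counts in the ratio was not tested. A ratio of at least 10 was seen in 64.7% of narrow and 62.1% of wider domains.

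Low IgG counts were common. Of the narrow domains, 527 (29.6%) had at most 3 IgG reads, against 1.41% of the wider domains, and 74 had none. For these the ratio has almost no counting precision, and against 0 IgG reads only a lower limit can be given. A value against 3 IgG reads is given beside it and is not a limit. Both antibodies were also scaled by their totals of uniquely aligned reads, an alternative chosen after seeing the data. H3K4me3 was then at least 2-fold higher than IgG in 71.0% of narrow domains, 72.8% of wider domains and 66.5% of all listed hemp domains. It was at least 1-fold in 97.6%, 98.5% and 90.2% of them. The remaining narrow domains lay below IgG on this scaling despite a read ratio of at least 4, so a read ratio of 4 was under 1-fold here.

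**Figure D1:**
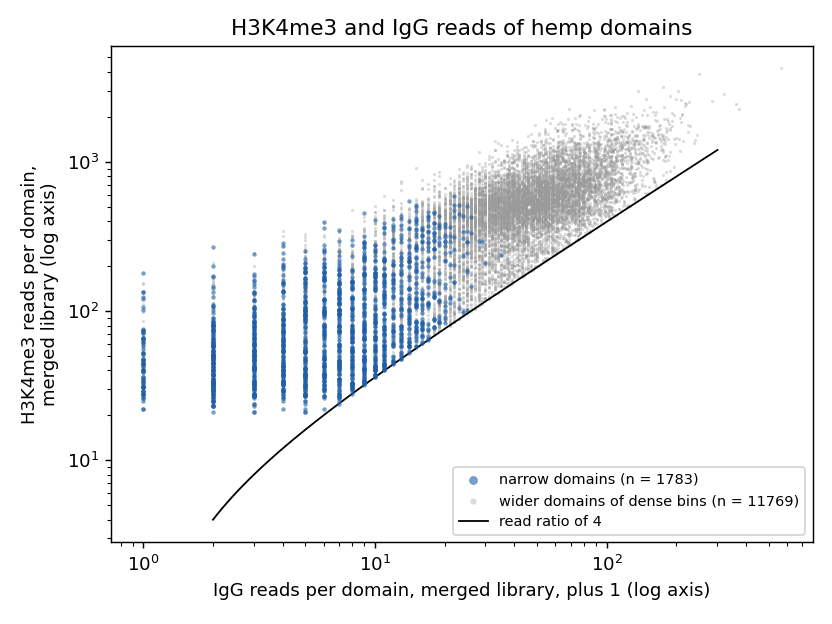
Reads per domain in the merged H3K4me3 library (vertical, log axis) against the merged IgG library plus 1 (horizontal, log axis), with 1 point per domain. The 1783 narrow domains (blue) lie between 21 and 586 H3K4me3 reads, at the low end of the 11769 wider domains of the dense bins (grey), and the black line marks a read ratio of 4.

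All widths were whole numbers of 200 bp windows, so the narrow domains fell into 4 classes. There were 122 domains of 1 window (199 bp as end minus start), 370 of 2 windows (399 bp), 577 of 3 windows (599 bp) and 714 of 4 windows (799 bp). The median of H3K4me3 reads per domain was 30, 46, 72 and 113 in these classes in the order of their width, and that of IgG reads was 2, 3, 6 and 9. Both read counts were thus higher in each wider class. H3K4me3 reads per kb had medians of 150, 115, 120 and 141, with no steady order over all 4 classes. From 2 to 4 windows these medians rose with width. The lowest value was 105 reads per kb in domains of 1 window, 65 in those of 2 windows and lower in each wider class. The part of this higher lower end in the median of the domains of 1 window was not tested. The domains of 1 window had the lowest limit, 21 H3K4me3 reads, and none of them exceeded 105. Just outside the limit on width, 793 domains of 999 bp passed the other parts of the rule, with a median of 164 H3K4me3 reads, 12 IgG reads and 164 H3K4me3 reads per kb. The domains of 999 bp therefore continued the order of the narrow classes with no break in read counts at 800 bp.

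**Figure D2:**
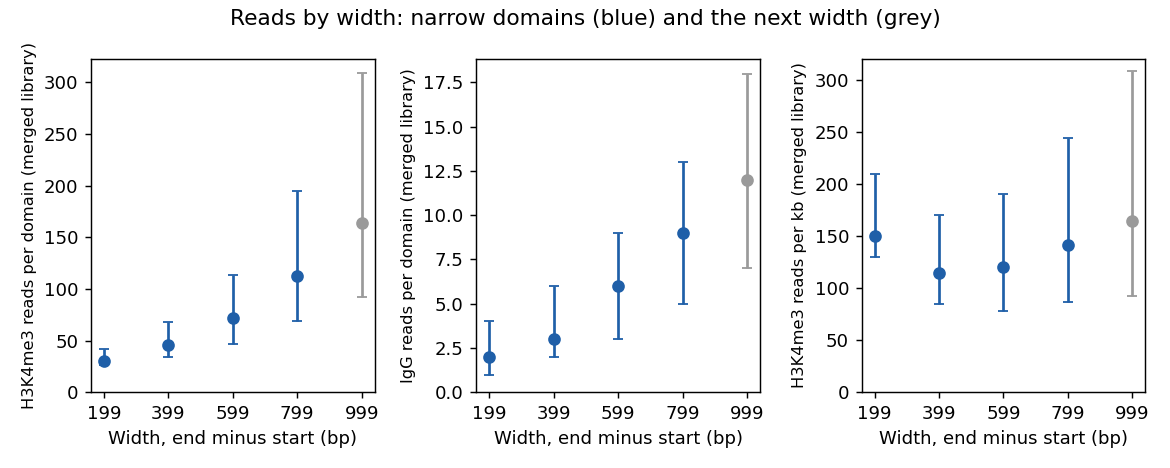
Median (point) and interquartile range (bar) of H3K4me3 reads per domain, IgG reads per domain and H3K4me3 reads per kb by domain width in bp. The narrow domains (blue, 122, 370, 577 and 714 domains) had median H3K4me3 reads of 30, 46, 72 and 113, and the next width of 999 bp (grey, 793 domains) had 164.

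The strongest narrow domains had read counts above the median of the wider ones. The most H3K4me3 reads were counted at chromosome 6, 38076600 to 38077399, with 586 H3K4me3 reads and 21 IgG reads, a ratio of 27.9 (95% Clopper-Pearson interval 18.1 to 45.4). A domain at chromosome 2, 81272000 to 81272799, had 550 H3K4me3 reads and 13 IgG reads (ratio 42.3, 24.5 to 80.0) and lay 1800 bp away from a domain of 4999 bp. The domain at chromosome 7, 58373600 to 58374399, had 516 H3K4me3 reads and 14 IgG reads (ratio 36.9, 21.8 to 67.9). All of these had 799 bp, the largest width the rule allowed. Each interval held the ratios of the others, so their order by ratio is not resolved. The intervals cover counting error only, since the replicates were merged, and the reads carry no molecular identifiers.

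Among narrow domains with at least 4 IgG reads, the highest ratios lay between 63.5 and 79.0. The domain at chromosome 7, 59131200 to 59131999, had 395 H3K4me3 reads and 5 IgG reads (ratio 79.0, 33.6 to 245). The domain at chromosome 10, 56742400 to 56743199, had 360 and 5 reads of H3K4me3 and IgG (ratio 72.0, 30.6 to 223). At 599 bp, the domain at chromosome 4, 88268600 to 88269199, had 254 and 4 reads (ratio 63.5, 24.5 to 235). With so few IgG reads the intervals are wide and cover one another's values.

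Some narrow domains had no IgG read at all. The domain at chromosome 1, 5302200 to 5302799, had 181 H3K4me3 reads and 0 IgG reads. The 95% Clopper-Pearson lower limit of its ratio was 48.6, and set against 3 IgG reads in place of 0 its ratio would be 60.3. The domains at chromosome 3, 85524000 to 85524799, and chromosome 5, 32833600 to 32833999, each had 134 H3K4me3 reads and 0 IgG reads. Their lower limit was 35.8, and set against 3 IgG reads their ratio would be 44.7. The domain on chromosome 5 was only 2 windows wide, at 399 bp. Its H3K4me3 count exceeded the upper quartile of the narrow domains of that width, which was 68.

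At the limit on the ratio, 12 narrow domains had a ratio of exactly 4, of which the first 3 by chromosome and position are given. These were chromosome 1, 6706400 to 6707199, with 48 H3K4me3 and 12 IgG reads, chromosome 2, 74620600 to 74621199, with 52 and 13, and chromosome 2, 94193800 to 94194599, with 40 and 10. Just outside, the nearest were chromosome 7, 57488800 to 57489599, with 87 and 22 reads (3.95), chromosome 1, 100367600 to 100368399, with 47 and 12 (3.92), and chromosome 9, 23841400 to 23842199, with 86 and 22 (3.91). The interval of the domain with 40 and 10 reads was 1.97 to 8.97, and that of the domain with 87 and 22 reads was 2.45 to 6.63. At the limit on bin density, 33 bins with exactly 10 listed domains held 48 narrow domains, and 37 bins with 9 listed domains held 42 domains that passed the other parts of the rule.

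The rule did not use the distance to other domains directly, but bin density and width are both tied to it. Windows that epic2 joined count as 1 wider domain without a gap, so a limit on width partly sets the gaps. The gaps are therefore a description. The median gap of narrow domains to the nearest listed domain was 7000 bp (95% binomial interval of the median 6400 to 7600, interquartile range 3200 to 16800). It was 5800 bp for wider domains (5600 to 6000, interquartile range 2400 to 14400). All listed hemp domains, sparse bins included, had a median gap of 6600 bp. The narrow domains of dense bins with a ratio under 4 had 5800 bp (4400 to 7400). Another listed domain lay within 2000 bp of 268 narrow domains, or 15.0% (95% Wilson interval 13.4 to 16.8), against 21.3% of wider domains (20.6 to 22.0). Most domains of both kinds thus had no listed domain within 2000 bp. The share was 17.6% (12.9 to 23.5) for the narrow domains of dense bins with a ratio under 4. More than 10000 bp separated 694 narrow domains (38.9%) and 33.8% of wider domains from any other. The interquartile ranges, which show the spread between domains, overlapped widely. The intervals of medians and shares treat domains as independent, which neighbouring domains are not. They rest on 1 pair of merged libraries and hold no replicate error. No listed hemp domains were closer than 800 bp, which sets the smallest gap.

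**Figure D3:**
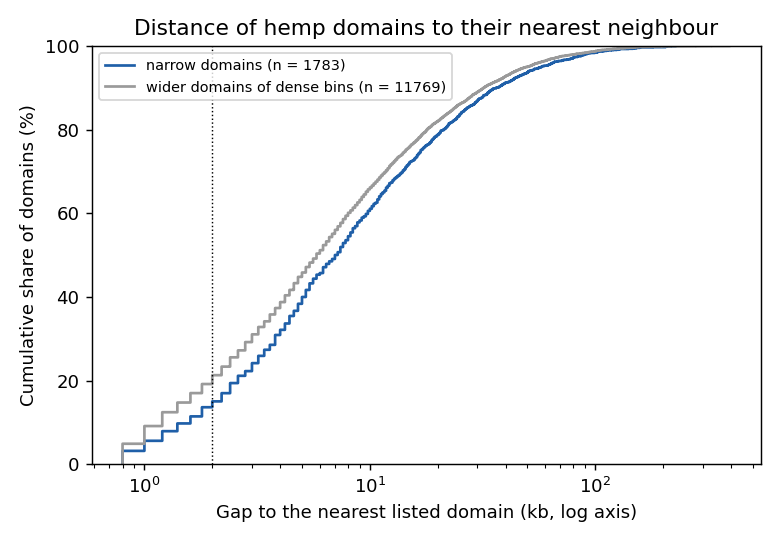
Cumulative share of domains (percent) against the gap to the nearest listed domain (kb, log axis) for 1783 narrow domains (blue) and 11769 wider domains of dense bins (grey). At the dotted line of 2 kb the curves stand at 15.0% of narrow and 21.3% of wider domains, and the median gaps are 7000 bp and 5800 bp.

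Of the 268 with a neighbour within 2000 bp, the nearest domain was 800 bp or wider in 211 (78.7%), and only 14 had a listed domain within 2000 bp on both sides. This share was 76.5% for narrow domains at any gap and 86.6% for all listed hemp domains. The smallest gap, 800 bp, was shared by 57 narrow domains, of which the 3 described are the first by chromosome and position. One of them lay at chromosome 1, 23658000 to 23658799, where 69 H3K4me3 and 15 IgG reads (ratio 4.60) lay beside a domain of 1999 bp with 964 and 42 reads. A like pair stood at chromosome 1, 28546200 to 28546999, with 75 and 16 reads (ratio 4.69) beside a domain of 1599 bp with 762 and 38 reads. Another domain at this gap differed from them. At chromosome 1, 13040000 to 13040799, it had 357 and 14 reads (ratio 25.5), more than its neighbour of 1199 bp with 93 and 10 reads. Over all 57, the neighbour had more H3K4me3 reads in 44 cases and fewer in 13.

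The 3 most isolated narrow domains had more H3K4me3 reads than the median narrow domain. The largest gap was 227800 bp, at chromosome 7, 37620000 to 37620599, with 174 H3K4me3 and 6 IgG reads (ratio 29.0, 13.1 to 80.1). The domain at chromosome 5, 52886000 to 52886799, had a gap of 216200 bp with 82 and 1 reads, and that at chromosome 4, 86781400 to 86782199, a gap of 207600 bp with 130 and 2 reads. All of these counts lay above 72, although IgG counts of 1 and 2 leave the last ratios with almost no precision. For their width, the counts on chromosome 7 (median 72 at 599 bp) and chromosome 4 (median 113 at 799 bp) were high. The 82 reads on chromosome 5 lay below that median of 113. Over gap classes the median of H3K4me3 reads was 66 for gaps up to 1000 bp, 77 for 1000 to 2000 bp, 78 for 2000 to 5000 bp, 76 for 5000 to 10000 bp and 67 beyond, so reads showed no steady order with distance. The neighbour lay on the side of lower coordinates in 876 cases, on the other side in 892, and at the same distance on both sides in 15.

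The domains that lay nearest to narrow domains were themselves narrower than those nearest to wider domains. Their median width was 1599 bp, against 2199 bp, and their median of H3K4me3 reads was 238, against 417. The nearest domain was under 800 bp for 419 narrow domains, or 23.5% (95% Wilson interval 21.6 to 25.5), and for 11.6% of wider domains (11.0 to 12.2). Domains nearest to each other count for both. Domains under 800 bp of any ratio also made up a larger share of the other domains in the same bin, a share that averaged 17.2% for narrow domains and 12.9% for wider ones. The narrow domains with a ratio under 4, which the rule left out, had a domain under 800 bp nearest in 14.6% of 199 cases.

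**Figure D4:**
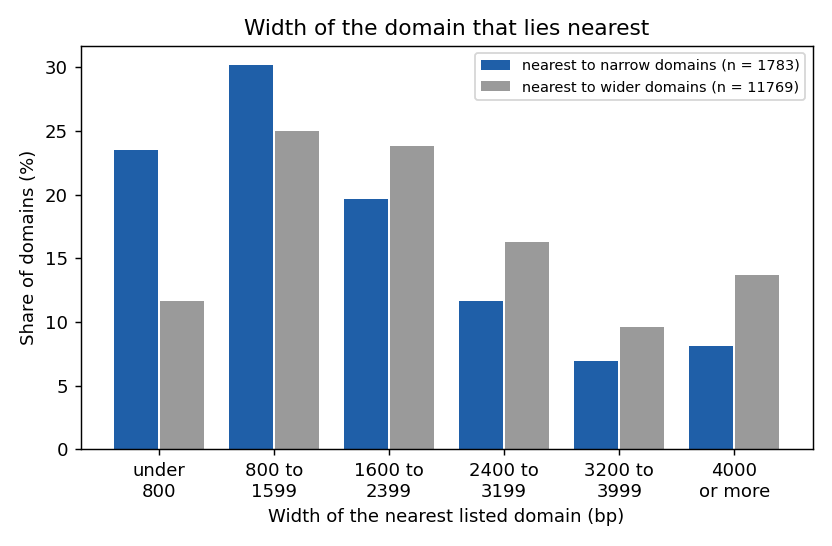
Share of domains (percent) by the width class of the nearest listed domain (bp), for narrow domains (blue, n = 1783) and wider domains of dense bins (grey, n = 11769). A domain under 800 bp was nearest to 23.5% of narrow and 11.6% of wider domains.

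Consecutive narrow domains, with no other listed domain between them, formed runs. There were 1137 narrow domains with none of their kind on either side (63.8%), and 646 (36.2%) stood in 264 runs of 2 or more, of which 184 were pairs and 54 held 3 domains. The longest run held 8 domains on chromosome 4 between 88639200 and 88740999, a span of 101799 bp, with 29 to 167 H3K4me3 reads and 1 to 6 IgG reads per domain. Runs of 6 were found on chromosome 3 between 90586800 and 90682599 (53 to 213 H3K4me3 reads), on chromosome 3 between 91008000 and 91189999 (41 to 196) and on chromosome 10 between 60330800 and 60387999 (28 to 162). Members of a run were not always close to each other, since within the run of 8 a domain at 88705600 to 88705999 had its nearest neighbour 21400 bp away.

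Narrow domains were present in most dense bins but were unevenly spread. Of 521 bins with 10 or more listed domains, 468 (89.8%) held at least 1 narrow domain, with a median of 3 per bin (interquartile range 1 to 4) and a maximum of 27. In 26 bins there were 10 or more, which together held 390 narrow domains (21.9%) and in which 26.9% of 1452 listed domains were narrow, against 12.1% over all dense bins. Chromosomes 1 and 3 had 6 of these bins each, chromosome 2 had 5, chromosomes 4 and 10 had 3 each, chromosomes 5, 6 and 7 had 1 each, and chromosomes 8 and 9 had none. The bins were picked by their number of narrow domains, so this share is a description.

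**Figure D5:**
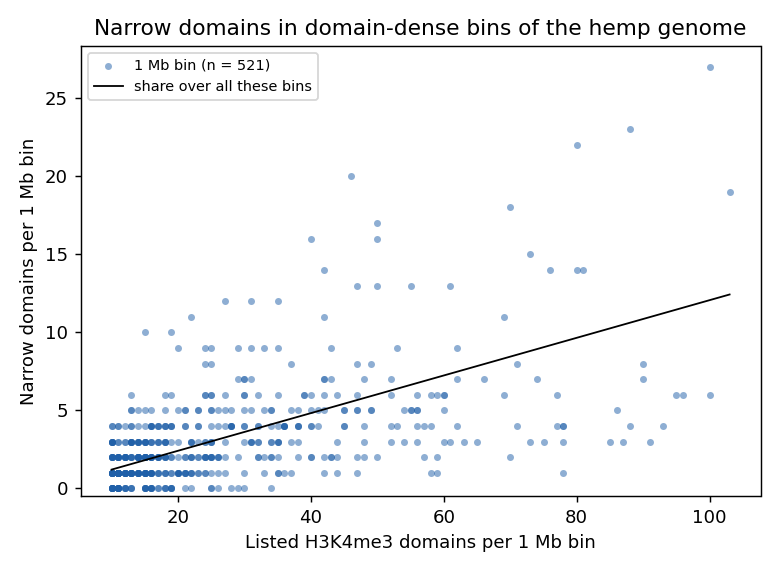
Narrow domains per 1 Mb bin (vertical) against listed H3K4me3 domains per 1 Mb bin (horizontal), with 1 point for each of the 521 dense bins. The black line is the share over all these bins, 12.1%, and the point with the most narrow domains is a bin on chromosome 4 with 27 narrow domains among 100 listed.

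The bin with the most narrow domains lay on chromosome 4 and started at 88 Mb. Its 27 narrow domains among 100 listed had 29 to 276 H3K4me3 reads (median 74) and 0 to 16 IgG reads (median 4), with sums of 2667 and 118 reads, and 13 of them had at most 3 IgG reads. The highest count was 276 H3K4me3 and 5 IgG reads at 88192400 to 88193199, followed by 254 and 4 at 88268600 to 88269199 and 227 and 14 at 88986800 to 88987599. The lowest counts were 29 and 5 at 88740400 to 88740999, 31 and 2 at 88705600 to 88705999, and 34 and 0 at 88002800 to 88002999. Narrow domains with low and with high H3K4me3 counts thus lay in the same bin. These counts are not per length: the domain with 34 reads had 199 bp, and the 3 with the highest counts had 599 or 799 bp. Between 88639200 and 88740999, the run of 8 narrow domains had 49, 43, 101, 49, 31, 37, 167 and 29 H3K4me3 reads in the order of position, beside 4, 2, 6, 3, 2, 1, 4 and 5 IgG reads. The median gap in the bin was 6200 bp, and 5 of the 27 had another listed domain within 2000 bp.

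Other bins rich in narrow domains lay near it in number. A bin on chromosome 7 starting at 1 Mb held 23 among 88 listed domains, and a bin on chromosome 1 starting at 4 Mb held 22 among 80. On chromosome 3 at 90 Mb, 20 of 46 listed domains (43.5%) were narrow, and the bins of chromosome 3 starting at 85, 91 and 92 Mb held 16 of 50, 16 of 40 and 17 of 50. Chromosome 1 had such bins at 1 Mb (18 of 70) and 2 Mb (19 of 103). Neighbouring bins of 1 chromosome were therefore among those with the most narrow domains. By share, the bins with 10 or more narrow domains were led by chromosome 2 at 44 Mb, where 10 of only 15 listed domains (66.7%) were narrow, and chromosome 5 at 32 Mb, with 10 of 19 (52.6%).

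Bins with 10 or more narrow domains differed from the other dense bins in their wider domains too. There the 1004 wider domains had a median width of 1799 bp, 327 H3K4me3 reads and 24 IgG reads, against 2399 bp, 485 and 40 for 10765 wider domains in the other dense bins. The narrow domains of the rich bins had a median of 80 H3K4me3 and 4 IgG reads with a ratio of 21.4, against 70, 7 and 13.1 for the narrow domains of the other bins. IgG reads per kb were lower in the rich bins both in narrow domains (6.67 against 11.7) and in wider domains (13.6 against 17.0), and their part in the ratios and in the number of narrow domains was not tested.

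As the density of a bin rose, gaps became smaller for both kinds of domain. In bins of 10 to 19, 20 to 39, 40 to 59, 60 to 79 and 80 to 103 listed domains, the median gap of narrow domains was 12800, 8400, 6400, 4400 and 4000 bp, and that of wider domains was 14000, 7600, 5000, 3800 and 3000 bp. The gap of narrow domains was thus smaller than that of wider domains in the least dense class and larger in the other 4. The share with a neighbour within 2000 bp was lower in narrow domains in every class, at 9.15% against 13.2% in the least dense and 23.0% against 35.8% in the densest. A domain under 800 bp was nearest to between 20.9% and 32.8% of narrow domains in these classes, and to between 8.41% and 14.0% of wider domains. Narrow domains made up 13.4%, 12.9%, 11.7%, 9.10% and 11.4% of the listed domains of the 5 classes.

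Every one of the 10 chromosomes carried narrow domains. Chromosome 2 had the most, 373, and chromosome 8 the fewest, 79. As a share of the listed domains of dense bins, narrow domains were most frequent on chromosome 3 (16.1%) and chromosome 2 (14.8%) and least frequent on chromosome 10 (8.99%) and chromosome 8 (9.11%). Reads varied less: the median of H3K4me3 reads per narrow domain lay between 63 on chromosome 9 and 84 on chromosome 8. The median of IgG reads was 4 on chromosome 2 and 8 on chromosomes 8 and 9. The median ratio was highest on chromosome 2 (19.8) and lowest on chromosome 9 (9.33), and the part of the IgG counts in this order was not tested. Median gaps were shortest on chromosome 10 (4800 bp) and longest on chromosome 8 (11000 bp).

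The narrow domain with the median H3K4me3 count of each chromosome was picked by that count and not by its IgG count. The close H3K4me3 counts of these domains therefore only repeat the chromosome medians. On chromosome 4, the domain at 89189200 to 89189999 had 69 H3K4me3 and 1 IgG reads, while that of chromosome 2 at 23295800 to 23296599 had 69 and 11. On chromosome 10, the domain at 44526200 to 44526599, of 399 bp, had 75 and 1 (13.1 to 3001). On chromosome 1 the domain at 6150000 to 6150799, of 799 bp, had 77 and 10 (3.97 to 16.7). The intervals overlapped in both pairs, which by itself does not settle whether the ratios within a pair differ. This difference was not tested. The domains of chromosomes 5 (67 and 1, at 47259800 to 47260199), 7 (73 and 6, at 41339600 to 41340199) and 3 (79 and 6, at 89968000 to 89968599) had at most 6 IgG reads. Those of chromosomes 6 (70 and 7, at 73072200 to 73072799), 9 (63 and 12, at 8167600 to 8167999) and 8 (84 and 14, at 51393400 to 51394199) had at least 7. Over these 10 domains the H3K4me3 counts lay between 63 and 84 and the IgG counts between 1 and 14, and the ratio was lowest on chromosome 9, at 5.25.

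The same rule was applied to the H3K4me3 table of untreated seedlings of the tomato variety Micro-Tom at 2 weeks of age, which was called and scaled separately. It gave 821 narrow domains of 18758 listed domains (4.38%), against 1783 of 16331 in hemp. A ratio of 4 corresponds to different fold changes in the tables, an authors' log2 fold change of 1.01 in hemp and 2.74 in tomato, so these counts are not on 1 scale. In the whole tomato table, 76.8% of listed domains reached a ratio of 4 and 96.8% an authors' log2 fold change of 1. With that fold change in place of the ratio, which selects the same narrow domains in hemp, tomato had 1328 (7.08%), of which 22.3% had a neighbour within 2000 bp and 11.5% had a domain under 800 bp nearest. Domains under 800 bp made up 13.6% of the hemp table and 9.41% of the tomato table, whatever their ratio. By the read ratio, the domain nearest to a narrow domain was under 800 bp in 23.5% of cases in hemp and 10.5% in tomato, and the value for wider domains was 11.6% in hemp and 8.22% in tomato. The share with a neighbour within 2000 bp was lower in narrow than in wider domains of hemp (15.0% against 21.3%) and was 22.5% against 20.4% in tomato. None of these differences was tested.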

How the data were processed

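The H3K4me3 and IgG libraries of hemp, 3 replicates each, were aligned by the authors with Bowtie2 (version 2.4.1) to cs10, merged per antibody, and used to call domains with epic2 (version 0.0.52, listed as SICER 0.0.52 in the submitters' processing notes). Those notes name TAIR10 as the build also for hemp, while the methods name cs10 and the hemp table has 10 numbered chromosomes that reach position 101196799. The labels describe sonicated chromatin, while the results of the paper name fragmentation with MNase for hemp. Window, gap, duplicate and mapping quality settings are not given in the sources used here. All starts are multiples of 200 bp.

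The deposited counts are whole reads per domain and antibody, without normalization. The FDR, a p-value adjusted by epic2, was taken as deposited and did not exceed 0.05 in any listed domain. The deposited unadjusted p-values were not used. In hemp domains with IgG reads, the deposited log2 fold change is the log2 read ratio minus a constant of 0.99. This relation does not hold for domains with 0 IgG reads, where the deposited value is finite (8.51 for the domain with 181 H3K4me3 reads). The deposited score, a multiple of the log2 fold change, was not used. The tomato H3K4me3 table was used for 1 comparison, and the tomato H3K9ac table was not used.

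Gaps were taken between the end of a domain and the start of the next, and bins were 1 Mb by midpoint. Reads per kb used width plus 1 bp. Wilson intervals of shares and binomial intervals of medians treat domains as independent and do not measure the spread between domains or replicates. Clopper-Pearson intervals of single domains cover counting error only. All are 95% intervals. Library totals entered only 1 alternative, added after seeing the data. No test between domains was made. Alternatives covered the width, the ratio, the IgG minimum, the bins, the FDR and the distance limit.

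The narrow domains and the alternatives were chosen with earlier results of these data known. Named domains were the 3 with the most H3K4me3 reads, the 3 with the highest ratio among those with 4 or more IgG reads, the 3 with the most H3K4me3 reads among those with 0 IgG reads, the 3 with the smallest and the 3 with the largest gap, the 3 nearest to the ratio limit on each side, the median domain of each chromosome, and those of the bin with the most narrow domains, with ties taken by chromosome and position. No cs10 genome or annotation was used here, so genes and sequences were not described. The functions that select and measure domains were tested on simulated data. All steps ran in Python 3.11.15, with NumPy 2.4.6, pandas 2.3.3 and SciPy 1.17.1, and plots were drawn with matplotlib 3.10.9.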

Additional observations from a re-analysis of the deposited data

How the results depend on the processing

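Of 68 combinations of result and alternative, 19 moved out of the interval of the main value or, for the count, by over 1.5 times. This tally does not measure robustness, since part of it was fixed in advance. The alternatives by log2 fold change and by FDR kept the same 1783 domains. Other distance limits change a share within a distance by definition. The interval of the median of IgG reads was 6 to 6, so any other value counted as moved. The count of narrow domains was 1069 with a width under 600 bp, 1256 with at least 4 IgG reads, 1266 when a 2-fold excess by totals of uniquely aligned reads (chosen after seeing the data) replaced the ratio, and 2576 with a width under 1000 bp, against 1783, and it was between 1521 and 1934 under the others. The share with another listed domain within 2000 bp was 13.2% at a width under 600 bp and 13.4% with the totals, against 15.0%, and was 5.61% with a limit of 1000 bp and 40.0% with a limit of 5000 bp. The share whose nearest domain was 800 bp or wider was 80.5% with at least 4 IgG reads and 74.1% with the totals, against 76.5%. The median of H3K4me3 reads was 54 at a width under 600 bp, 91 under 1000 bp, 67 at a ratio of at least 3, 80 at a ratio of at least 6, 88 with at least 4 IgG reads and 89 with the totals, against 72. The median of IgG reads was 4, 8, 7, 5, 8 and 4 under the same alternatives, against 6. The ratio, IgG and totals alternatives select on these counts themselves, and the cause of the other changes was not tested. The median gap was between 6400 and 7400 bp in all of the alternatives run.

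No paired analysis was possible because the replicates were merged before deposit, and no replicate was left out for the same reason. The comparison with wider domains was not recomputed under the alternatives. Precision is limited by IgG: 29.6% of narrow domains had at most 3 IgG reads.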

Other observations

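Narrow domains with a ratio of at least 4 were also found in bins with fewer than 10 listed domains. These 217 domains had a median of 62 H3K4me3 and 6 IgG reads and a ratio of 14.1, against 72, 6 and 15.0 in the narrow domains of dense bins. Their median gap was 28600 bp, against 7000 bp, which the bin limit partly sets. A domain under 800 bp was nearest to 20.7% of them, against 23.5%. The 199 narrow domains of dense bins with a ratio under 4 had a median of 41 H3K4me3 and 13 IgG reads and a median gap of 5800 bp.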
